A study of Sus scrofa with 599 samples.

Results

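Fat of the greater omentum (GOM), which hangs from the stomach inside the abdomen, was compared with the upper layer of backfat (ULB), which lies under the skin, in the weight-gain (WG) group of pigs. The libraries were chosen by their labels: every RNA-seq column named for WG GOM or WG ULB that matches a sample of the series, which gave 45 GOM and 38 ULB libraries of 236, and the same groups of in situ Hi-C, which gave 46 GOM and 39 ULB samples of 240. The series holds 4 adipose depots of 2-year-old female Bama pigs, a Chinese miniature breed, in 3 nutritional groups. WG pigs ate a high-fat diet, normal condition (NC) pigs ate a normal diet, and weight-loss (WL) pigs were WG pigs that were then fed a severely restricted ration. No allele, transgene or drug separates the depots, which were exposed to the same diet. Adiponectin (ADIPOQ, 343 TPM or more) and the fatty acid binding protein FABP4 (2678 TPM or more) were abundant in all 83 libraries, so the fat cell markers of the labelled tissue were present.

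Omental fat develops in the lining of the abdominal cavity and is covered by mesothelium, a sheet of flat epithelial cells, and much of it carries small immune cell clusters. Backfat develops under the skin of the trunk. Fat cells and their precursors keep patterning genes of the body region they come from, so depots differ in homeobox and other developmental transcription factors as well as in metabolism. Hi-C sorts the chromosomes into compartment A, which is gene-rich and mostly active, and compartment B, which is mostly silent.

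Of 13705 protein-coding genes (PCGs) tested, 2456 (17.9%) were differentially expressed genes (DEGs), meaning an adjusted p below 0.05 by edgeR's quasi-likelihood test with Benjamini-Hochberg adjustment and a fold above 1.5. Of these, 1040 (7.59%) were higher in ULB and 1416 (10.3%) in GOM. Differences above 8-fold were found in 53 PCGs higher in ULB and 99 higher in GOM. For 44 PCGs (0.321%) the TPM of the depots did not overlap at all, 26 of them higher in ULB and 18 in GOM. Log2 fold changes are given as ULB over GOM with their SE, so that a negative value is a gene higher in GOM, and levels are TPM (the share of transcripts, corrected for transcript length and scaled to a fixed sum). The median log2 fold change of all PCGs tested was -0.0024. In bulk tissue, fewer cells of a type and less RNA per cell cannot be told apart.

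The estimated counts on PCGs were 3337098 to 20910121 per GOM library (median 16385117) and 13228217 to 22303106 per ULB library (median 17738930), and PCGs held 76.1% to 96.4% and 86.1% to 96.3% of the TPM. A pair of libraries stood apart. ULB replicate 7 had the highest ULB value in 12 of 16 tested genes of the visceral and mesothelial lists below, for example 23.8 TPM of WT1 against 0.741 in the next ULB library, while its EN1 level was that of other ULB libraries (18.3 TPM). GOM replicate 35 was the shallowest library (the next held 10471274 counts) and had 4501 TPM of the T cell gene CD247 against 78.7 in the next GOM library. Without both, 2455 DEGs were called, and 2320 of the 2456 kept their call and direction.

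Promoters are shown for the 4 genes whose start lay in bins that switched compartment between the depots and whose expression differed most, 2 in each direction. Each is the 200 bases before the RefSeq start on Sscrofa11.1, 5′ to 3′ on the strand of the gene. Capitals mark the letters of CCAAT and GGGCGG on either strand, and TATAAA was also searched. WT1 lies at chr2:28411267-28411466 on the plus strand, PKHD1L1 at chr4:28176332-28176531 on the minus strand, IRX3 at chr6:31044719-31044918 on the plus strand and MSX2 at chr16:49771746-49771945 on the minus strand.
WT1: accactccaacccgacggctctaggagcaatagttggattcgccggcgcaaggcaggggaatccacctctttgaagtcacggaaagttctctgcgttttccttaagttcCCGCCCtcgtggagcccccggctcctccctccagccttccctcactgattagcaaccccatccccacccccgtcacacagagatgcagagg
PKHD1L1: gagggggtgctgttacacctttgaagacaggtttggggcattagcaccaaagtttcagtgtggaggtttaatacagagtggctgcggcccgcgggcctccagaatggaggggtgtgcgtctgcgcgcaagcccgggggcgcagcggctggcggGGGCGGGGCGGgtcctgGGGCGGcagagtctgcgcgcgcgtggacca
IRX3: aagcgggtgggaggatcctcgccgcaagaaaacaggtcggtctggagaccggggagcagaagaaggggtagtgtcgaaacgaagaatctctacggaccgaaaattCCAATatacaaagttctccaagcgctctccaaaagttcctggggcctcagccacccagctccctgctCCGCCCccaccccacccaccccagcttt
MSX2: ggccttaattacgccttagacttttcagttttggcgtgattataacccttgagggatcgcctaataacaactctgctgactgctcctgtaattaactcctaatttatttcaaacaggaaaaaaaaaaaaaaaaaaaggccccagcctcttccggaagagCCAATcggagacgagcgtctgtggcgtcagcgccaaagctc

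GGGCGG was found in the promoters of WT1, PKHD1L1 (3 matches, 2 of which overlap by a letter) and IRX3, and in 50.7% of the 13563 promoters of the same length. CCAAT was found in IRX3 and MSX2 and in 27.8% of all promoters, and TATAAA in none of the 4 and in 6.24% of all. The GC content was 59.5% in WT1, 67% in PKHD1L1, 58% in IRX3 and 44.5% in MSX2, beside a median of 61.5% over all promoters.

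The transcription factors of the visceral lining were higher in GOM. Of 12 listed, 9 were tested, 7 were DEGs higher in GOM, none was a DEG higher in ULB, and the median log2 fold change was -5.42. WT1, a zinc finger factor that marks mesothelium and visceral fat precursors, was at 12.9 (lowest), 40.2 (median) and 182 (highest) TPM in GOM and at 0, 0.154 and 23.8 TPM in ULB. The depots overlapped through ULB replicate 7 alone. The log2 fold change was -5.86 ± 0.44 (adjusted p = 5.47e-21) with all libraries and -7.84 without that replicate. TCF21, a basic helix-loop-helix factor of visceral mesenchyme, was at 2.61, 6.73 and 26.7 TPM in GOM and at 0, 0.0542 and 2.31 TPM in ULB, with no overlap (log2 fold change -5.81 ± 0.31, adjusted p = 1.97e-29, and -6.57 without that replicate).

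The basonuclin BNC1 was at 1.21, 8.33 and 24.9 TPM in GOM, and its median in ULB was 0 (highest 2.41, in replicate 7). Its log2 fold change was -6.70 ± 0.40 (adjusted p = 2.57e-26) and was -8.70 without that replicate. GATA5, a zinc finger factor of endoderm and heart, had the same form, with 1.79, 8.22 and 20.4 TPM in GOM, a ULB median of 0 and a highest ULB value of 2.62 TPM in replicate 7 (log2 fold change -6.41, and -7.81 without it). HAND2, which patterns limb and visceral mesenchyme, did not overlap between the depots (5.16, 12.5 and 39.4 TPM in GOM, 0, 0.200 and 3.09 TPM in ULB). GATA6 and ISL1 were lower by less, at log2 fold changes of -2.74 ± 0.16 and -4.70 ± 0.24. The other tested factors, TBX18 and NR2F1, were not DEGs, and GATA4, HAND1 and TBX20 had medians at or near 0 over the libraries of both depots together.

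Outside the list, the largest DEGs toward GOM were taken among genes with a mean of at least 5 TPM and no overlap between the depots. BARX1, a homeobox factor of the stomach wall, was at 2.32, 6.59 and 38.3 TPM in GOM and had a median of 0 and a highest value of 2.23 TPM in ULB, in replicate 7. Its log2 fold change was -6.46 ± 0.35 (adjusted p = 5.83e-29) and was -8.13 without that replicate. NKX3-2, a homeobox factor of the spleen and stomach mesenchyme, was at a median of 4.94 TPM in GOM and 0.276 TPM in ULB (log2 fold change -3.86 ± 0.25). CRB2, a cell polarity protein, was at 1.69, 8.83 and 22.9 TPM in GOM and 0, 0.011 and 1.33 TPM in ULB (-7.12 ± 0.37, and -8.24 without replicate 7). The matrix protein LTBP2 was at 36.1 and 3.90 TPM at the median, and DKK3, a secreted Dickkopf family member, at 46.5 and 7.54 TPM. The PCG ENSSSCG00000039500, to which the files give no symbol, also belonged to this set, at a median of 13.9 TPM in GOM and 0.250 TPM in ULB.

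**Figure D1:**
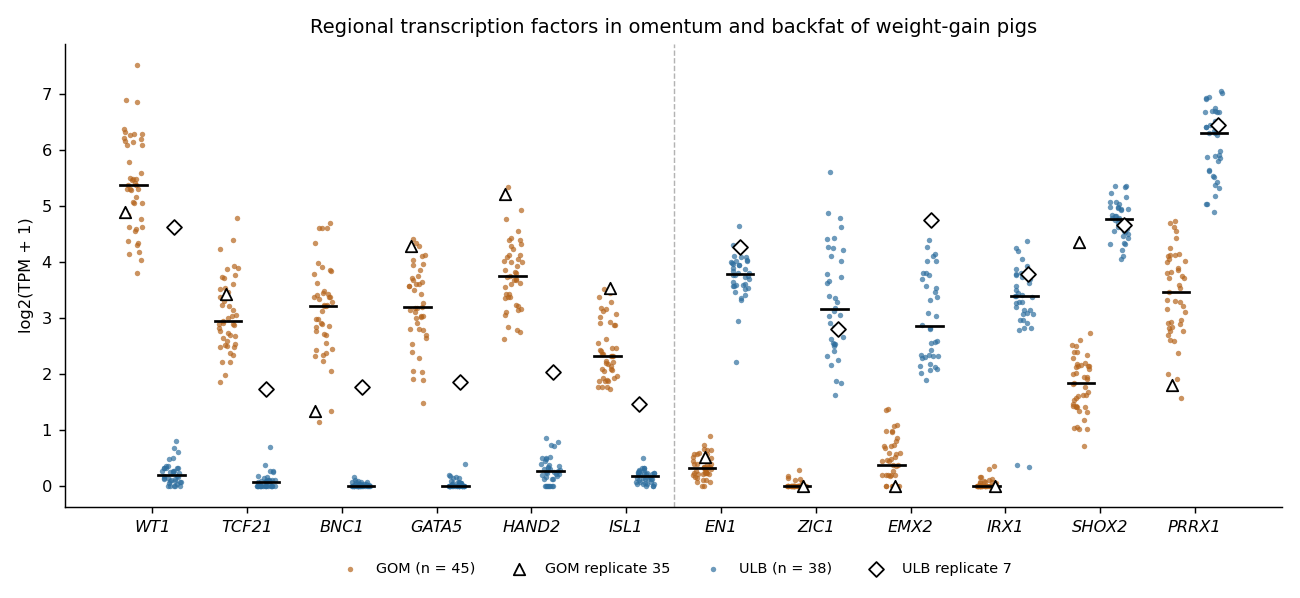
Log2(TPM + 1) of regional transcription factors in each RNA-seq library of WG GOM (brown, n = 45) and WG ULB (blue, n = 38), with a black bar at the median of each depot and marks for ULB replicate 7 (diamond) and GOM replicate 35 (triangle). Left of the dashed line are visceral genes, low in ULB apart from replicate 7, and right of it subcutaneous genes with lower medians in GOM, where GOM replicate 35 lies within the ULB range for SHOX2.

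Genes of mesothelium followed the same direction. Of 14 markers, 8 were in the table, 7 were tested and 6 were higher in GOM, with a median log2 fold change of -4.51. Their summed level was 113 to 1239 TPM in GOM (median 371) and 4.07 to 152 TPM in ULB (median 22.6). UPK1B, a uroplakin, was at 0, 36.9 and 108 TPM in GOM and 0, 0.274 and 10.4 TPM in ULB. The GOM library at 0 was the shallow replicate 35 and the highest ULB library was replicate 7. The log2 fold change was -6.01 ± 0.34 (adjusted p = 2.29e-28) and was -6.89 without both. The keratin KRT8 was at 23.5, 111 and 584 TPM in GOM and 0.473, 4.42 and 17.2 TPM in ULB, with no overlap. GPM6A, a membrane glycoprotein, was at a median of 66.2 TPM in GOM and 1.06 TPM in ULB (log2 fold change -5.09, and -5.75 without ULB replicate 7), and the retinaldehyde dehydrogenase ALDH1A2, which makes retinoic acid, at 106 and 6.56 TPM. KRT18 was not a DEG, and CALB2 had a median at or near 0 over the libraries of both depots together. Most of the visceral factors above and most of these markers were higher in GOM. The part of the mesothelial cells in the difference of WT1, TCF21 or BNC1 was not tested.

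Backfat had the higher level of most patterning factors of the body wall and limb. Of 21 listed, 18 were in the table and 12 were tested. Of these, 9 were higher in ULB, TBX1 was higher in GOM, and the median log2 fold change was 3.29. EN1, a homeobox factor of dorsal dermis and limb, was at 0, 0.258 and 0.856 TPM in GOM and 3.67, 12.8 and 23.9 TPM in ULB. No library overlapped (log2 fold change 5.55 ± 0.16, adjusted p = 4.69e-48). The retroperitoneal depot of WG pigs had a median of 3.95 TPM and the mesenteric depot 0.316 TPM of EN1.

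The Iroquois homeobox genes were higher in ULB throughout the 4 that were tested. IRX1 had a median of 0 in GOM (highest 0.289 TPM) and was at 0.262, 9.48 and 19.8 TPM in ULB, and IRX2 likewise had a median of 0 in GOM and 3.68 TPM in ULB. The ULB libraries low in both were replicates 20 and 22. IRX3 was at 0.117, 1.28 and 11.9 TPM in GOM and 8.15, 12.0 and 34.8 TPM in ULB, with an overlap of the extremes (log2 fold change 3.43 ± 0.20, adjusted p = 3.15e-27). IRX5, next to it on chromosome 6, did not overlap (median 0.139 TPM in GOM and 3.76 TPM in ULB, log2 fold change 4.62 ± 0.21).

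PRRX1, a homeobox factor of limb and body wall mesenchyme, was at 1.99, 10.0 and 25.4 TPM in GOM and 28.8, 77.5 and 132 TPM in ULB. SHOX2, which patterns the proximal limb, was at 2.57 TPM in GOM and 26.4 TPM in ULB at the median. MSX2 was at 0.427 and 3.46 TPM and TBX5 at 0.409 and 2.02 TPM. The mesenchymal homeobox factor MEOX2 was at 53.6 TPM in GOM and 52.4 TPM in ULB (log2 fold change 0.03 ± 0.07, adjusted p = 0.79). The fold thus differed widely between factors of the same list.

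Outside the list, the largest DEGs toward ULB were taken by the same rule, which asks for no overlap. ZIC1, a zinc finger factor of dorsal neural tube and somite, had a median of 0 in GOM (highest 0.224 TPM) and was at 2.08, 7.92 and 47.6 TPM in ULB (8.92 ± 0.31). EMX2 was at a median of 0.299 TPM in GOM and 6.23 TPM in ULB. FGF10, a growth factor that mesenchyme sends to epithelium and to fat precursors, was at 0, 0.881 and 2.21 TPM in GOM and 11.8, 36.7 and 114 TPM in ULB (5.50 ± 0.18, adjusted p = 6.27e-44).

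CRABP2, which carries retinoic acid to the nucleus, CRYM, a thyroid hormone binding protein, the matrix proteins KERA and THBS4, and the PCG ENSSSCG00000006725 were also among the 10 largest differences toward ULB. CRYM was at 1.17, 3.13 and 6.56 TPM in GOM and 26, 53.1 and 113 TPM in ULB. THBS4 was at a median of 0.877 TPM in GOM and 27 TPM in ULB, and KERA at 2.30 and 39.8 TPM. ENSSSCG00000006725, which has no symbol in the files, had the largest of these differences, with 0, 0.0746 and 0.349 TPM in GOM and 27.2, 58.1 and 105 TPM in ULB (log2 fold change 9.41 ± 0.18, adjusted p = 1.02e-61).

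HOX genes, which set position along the body axis and lie in 4 clusters, split by cluster. Of 34 in the table, 23 were tested, 9 were higher in ULB, 9 were higher in GOM, and the median log2 fold change was 0.02. All 7 tested HOXB genes were higher in GOM (median -1.44), and all 5 tested HOXD genes were higher in ULB (median 1.86). In HOXC, 3 of 5 were higher in ULB and none in GOM, and the call of HOXC6 was lost without the libraries under 90% of TPM on PCGs. In HOXA, HOXA9 was higher in ULB, and HOXA2 was among those higher in GOM.

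HOXD8 was at 4.21, 9.70 and 14.9 TPM in GOM and 46, 81.6 and 118 TPM in ULB. It was the HOX gene without overlap in these libraries (log2 fold change 3.18 ± 0.11, adjusted p = 1e-43), and its level in the retroperitoneal depot was 51.6 TPM at the median. HOXB6 was at 10.2, 21.3 and 89.2 TPM in GOM and 1.3, 4.24 and 11.9 TPM in ULB (-2.23 ± 0.15, adjusted p = 2.72e-24). HOXC9 was at a median of 0.414 TPM in GOM and 3.95 TPM in ULB, and HOXC8 at 0.514 and 3.33 TPM. HOXB7, the most abundant HOXB gene in GOM, was at 26.3 TPM there and 11.7 TPM in ULB.

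**Figure D2:**
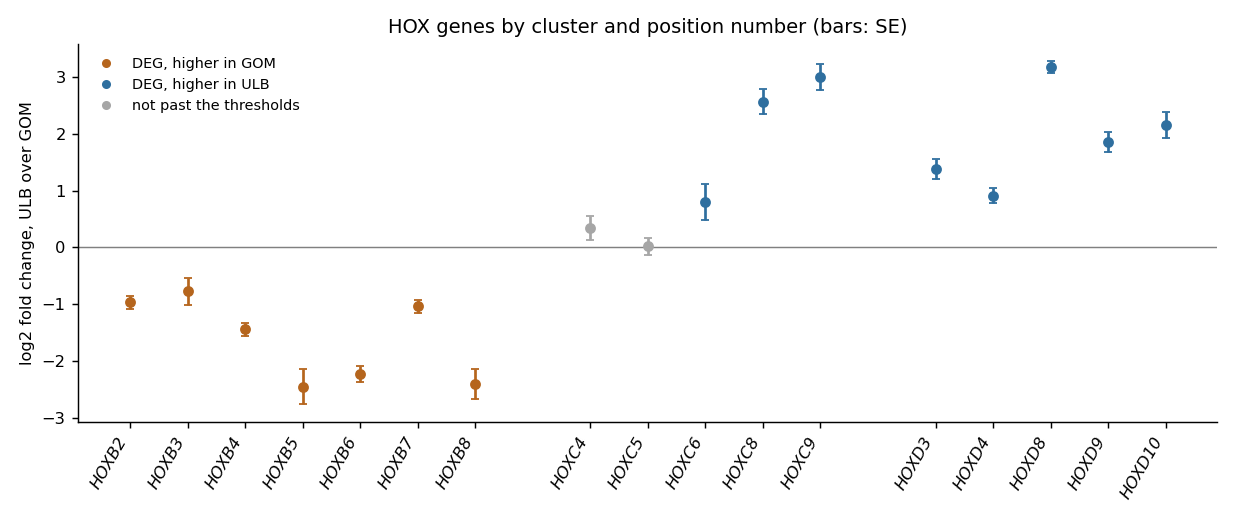
Log2 fold change (ULB over GOM, y axis) of the tested HOXB, HOXC and HOXD genes in WG pigs, in the order of their numbers, with bars of 1 SE. The 7 HOXB genes lie below 0 and the 5 HOXD genes above 0.

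Fibrillar collagens, type VI collagen and the crosslinker LOX were higher in ULB. Of 17 fibrillar matrix genes, all tested, 12 were higher in ULB, fibronectin (FN1) was higher in GOM, and the median log2 fold change was 1.14. COL3A1, the main chain of type III collagen, was at 138, 1382 and 2726 TPM in GOM and 3397, 5925 and 13105 TPM in ULB, with no overlap (2.33 ± 0.15, adjusted p = 2.28e-25). COL1A1 was at 17.9, 103 and 841 TPM in GOM and 74.8, 686 and 4559 TPM in ULB (2.73 ± 0.31). LOX was at 76.1 and 159 TPM and SPARC at 1567 and 3701 TPM at the median. FN1 was at 462 TPM in GOM and 243 TPM in ULB (-1.04 ± 0.19). Of 10 tested basement membrane genes, COL4A1 and NID2 were higher in ULB and none in GOM.

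**Figure D3:**
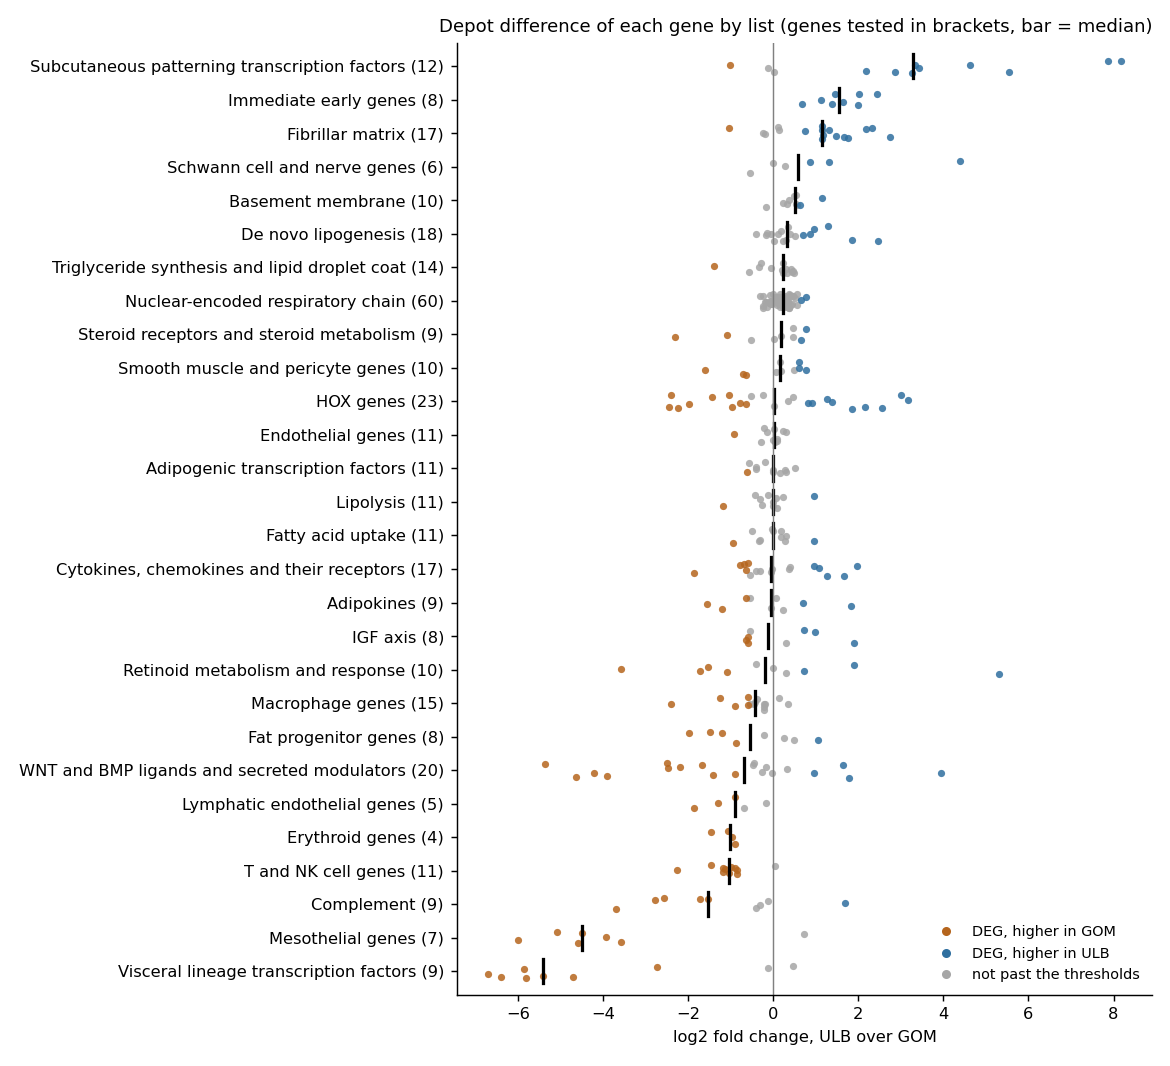
Log2 fold change (ULB over GOM, x axis) of each tested gene of the lists with at least 4 tested members, 1 list per line, with a black bar at the median, blue for DEGs higher in ULB and brown for DEGs higher in GOM. The visceral, mesothelial and T and NK cell lists lie mostly below 0, and the patterning, fibrillar matrix and immediate early lists mostly above it.

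Genes of fatty acid synthesis were in part higher in ULB. Of 18 tested genes of de novo lipogenesis, 6 were higher in ULB (among them SCD, PNPLA3, SREBF1, PGD and ELOVL6), none in GOM, and the median log2 fold change was 0.32. SCD, the stearoyl-CoA desaturase, was at 89.3, 1421 and 7157 TPM in GOM and 3706, 8821 and 21170 TPM in ULB (2.47 ± 0.24, adjusted p = 1.34e-15). PNPLA3, a lipid droplet acyl hydrolase, was at 6.31, 26.6 and 87.0 TPM in GOM and 39.6, 98.2 and 198 TPM in ULB (1.86 ± 0.13). THRSP, a lipogenic cofactor, was at 1796 and 1336 TPM at the median (-0.06 ± 0.20, adjusted p = 0.833).

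Storage, uptake and lipolysis genes mostly did not pass, which also holds for PCGs as a whole, of which 17.9% were DEGs. In lipolysis and in fatty acid uptake alike, 11 genes were tested, with 1 DEG higher in each depot. Of 14 genes of triglyceride synthesis and the lipid droplet coat, PLIN5, a perilipin of oxidative tissue, was higher in GOM (30.5 against 11.8 TPM, -1.40 ± 0.11) and the other 13 were not DEGs. In lipolysis, PRKAR2B, a regulatory subunit of protein kinase A, was higher in ULB (297 against 151 TPM), and G0S2, an inhibitor of adipose triglyceride lipase, was higher in GOM (147 against 41.4 TPM). In fatty acid uptake, ANGPTL4, an inhibitor of lipoprotein lipase, was higher in ULB (0.95 ± 0.18), and the lipoprotein receptor VLDLR in GOM (107 against 51.7 TPM). PPARG, the main regulator of fat cells, was at 77.2, 141 and 248 TPM in GOM and 73.2, 206 and 316 TPM in ULB. Its log2 fold change of 0.51 ± 0.11 (adjusted p = 3.99e-05) was under the 1.5-fold limit. Of 11 adipogenic factors, ZBTB16 was the DEG, higher in GOM.

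Adipokines divided between the depots, with 2 of 9 tested higher in ULB and 3 higher in GOM. Leptin (LEP), the satiety hormone, was at 53.0, 375 and 1098 TPM in GOM and 126, 595 and 1016 TPM in ULB (0.69 ± 0.16, adjusted p = 0.000268), with wide overlap. Apelin (APLN) was at 1.36 and 5.04 TPM at the median (1.83 ± 0.17). Chemerin (RARRES2), an attractant of immune cells, was at 214, 523 and 2353 TPM in GOM and 67.0, 165 and 366 TPM in ULB (-1.57 ± 0.15). RBP4 and NAMPT were also higher in GOM. ADIPOQ was at 2264 TPM in GOM and 2404 TPM in ULB (adjusted p = 0.14).

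WNT and BMP signalling differed in ligands and in secreted inhibitors. Of 20 tested, 10 were higher in GOM, 4 in ULB, and the median log2 fold change was -0.69. Among ligands, WNT16 (24.6 against 1.33 TPM), WNT5A (15.3 against 2.63 TPM), WNT2B, WNT10B and BMP7 were higher in GOM and WNT2 in ULB. BMP7 was at 0.802, 6.34 and 27.4 TPM in GOM and 0, 0.115 and 1.16 TPM in ULB (-5.38 ± 0.29, adjusted p = 1.46e-29). RSPO1, which amplifies WNT signals, was at 7.45, 19.7 and 38.5 TPM in GOM and 0, 0.573 and 5.64 TPM in ULB, with no overlap. Of the secreted antagonists, SFRP4 was at 2.73, 8.41 and 44.8 TPM in GOM and 63.5, 139 and 292 TPM in ULB, again with no overlap (3.94 ± 0.16, adjusted p = 1.89e-37). SFRP1 and FRZB were higher in ULB too, whereas SFRP2, DKK3 and the BMP antagonist GREM1 (47.0 against 0.950 TPM) were higher in GOM.

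Retinoid genes were divided, with 4 of 10 tested higher in GOM and 3 in ULB. Enzymes that make retinoic acid were divided, with ALDH1A2 and ALDH1A3 (86.0 against 38.1 TPM) higher in GOM and ALDH1A1 (348 against 581 TPM) higher in ULB. The binding protein CRABP1 was higher in GOM, and CRABP2 was at 0, 0.383 and 5.03 TPM in GOM and 6.97, 23.2 and 70.8 TPM in ULB (5.30 ± 0.26). CYP26B1, which degrades retinoic acid, was higher in ULB. In the IGF axis, IGF1 (40.4 against 71.4 TPM), IGFBP5 (110 against 447 TPM) and IGFBP6 were higher in ULB, and IGF1R, IGFBP2 and IGFBP4 in GOM. Without GOM replicate 35 and ULB replicate 7 the calls of IGFBP2 and IGFBP4 were lost (-0.58 and -0.54), which left 1 toward GOM in place of 3. Of the steroid genes, the progesterone receptor PGR (15.4 against 2.92 TPM, -2.31 ± 0.13) and HSD11B1, which activates glucocorticoids (127 against 50.9 TPM), were higher in GOM, and ESR1 and HSD17B1 in ULB.

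Lymphocyte genes were higher in GOM. Of 11 T and NK cell genes tested, 10 were higher in GOM, NKG7 was not a DEG, and the median log2 fold change was -1.04. IL7R, the receptor of interleukin-7, was at 3.82, 26.3 and 69.9 TPM in GOM and 3.67, 10.0 and 16.5 TPM in ULB (-1.47 ± 0.14, adjusted p = 2.75e-15). CD2 was at 19.2 and 8.02 TPM and CD4 at 3.48 and 1.64 TPM at the median. The difference of CD247 rested on GOM replicate 35: it was -2.25 with that library and -0.10 (adjusted p = 0.611) without it. The immunoglobulin joining chain JCHAIN was at 12.8, 79.0 and 717 TPM in GOM and 11.4, 25.3 and 115 TPM in ULB (-1.75 ± 0.25), while CD79A was at 14.8 and 14.1 TPM. Erythroid genes, a sign of blood in the sample, also moved, with 4 of 4 tested higher in GOM and a summed level of 40.03 to 9058 TPM (median 2051) in GOM and 60.8 to 6026 TPM (median 908) in ULB. The call of AHSP, which stabilizes alpha globin, was lost without ULB replicate 7 (adjusted p = 0.0568, 0.0456 with it), and 3 of 4 passed without the libraries under 90% of TPM on PCGs. With the summed TPM of PCGs as a covariate the calls of AHSP and HBM were lost. The part of blood in the lymphocyte genes was not tested.

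Macrophage and complement genes leaned the same way. Of 15 macrophage genes, 5 were higher in GOM, none in ULB, and 10 were not DEGs. CD163, a scavenger receptor of resident macrophages, was at 7.70, 256 and 577 TPM in GOM and 28.8, 83.6 and 214 TPM in ULB (-1.26 ± 0.17, adjusted p = 9.57e-10), and MARCO at 4.37 and 0.607 TPM. SPP1 and GPNMB, which mark lipid-associated macrophages, were at 409 and 265 TPM and at 280 and 264 TPM and were not DEGs. Of 9 complement genes, 5 were higher in GOM (C3, C4A, C7, CFB and CFI), C5 was higher in ULB, and the median was -1.54. C3, the central component, was at 8.91, 236 and 1133 TPM in GOM and 9.49, 38.7 and 148 TPM in ULB (-2.57 ± 0.23), and its inactivator CFI at 117 and 7.08 TPM.

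Chemokines and cytokines were divided, with 5 of 17 higher in each depot. The monocyte attractant CCL2 was at 0, 69.5 and 177 TPM in GOM and 75.2, 217 and 1153 TPM in ULB (1.97 ± 0.21, adjusted p = 1.69e-13), and IL6 at 12.9 and 28.1 TPM. CCL3L1 and CCL4, which are close relatives that may share reads, were also higher in ULB. CCL21, IL10, CXCR4, CX3CR1 and CCR7 were higher in GOM, and the call of CCR7 was lost without ULB replicate 7 and GOM replicate 35. All 8 tested immediate early genes, which respond within minutes to stimuli and to handling of tissue, were higher in ULB, with a median of 1.54 and a summed level of 133 to 1245 TPM in GOM and 241 to 4022 TPM in ULB. With the replicate number as a block ATF3 lost its call (0.56 in place of 0.68). FOSB was at 2.59, 17.7 and 114 TPM in GOM and 12.7, 78.2 and 891 TPM in ULB. Whether tissue was taken from both depots after the same delay is not given in the sources used here, and the part of this in CCL2 and IL6 was not tested.

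Markers of other cell types differed less. Of 11 endothelial genes, TEK was the DEG (88.8 TPM in GOM against 38.6 in ULB). Of 5 lymphatic genes, FLT4, LYVE1 and CCL21 were higher in GOM, and PROX1 and PDPN were not DEGs. LYVE1 was also counted among the macrophage genes and CCL21 among the chemokines. Of 10 smooth muscle and pericyte genes, RGS5, DES and MYH11 were higher in ULB and LMOD1, TAGLN and MYOCD in GOM, and without ULB replicate 7 and GOM replicate 35 the count toward ULB was 1 in place of 3. Among Schwann cell and nerve genes, the intermediate filament gene GFAP was higher in ULB (0.736 against 1.41 TPM). Precursor genes of the fascia-like type, DPP4, PI16 (128 against 28.8 TPM) and MFAP5 (203 against 74.0 TPM), and PDGFRA were higher in GOM, and the pericyte receptor PDGFRB in ULB. The 5 of 11 listed skeletal muscle genes that had values summed to at most 94.6 TPM in GOM and 38.3 TPM in ULB. CKM and TNNI2 were slightly higher in GOM, and MYH1, MYH2, MYH7, MYLPF, TTN and MB had no values. The 7 of 9 skin keratinocyte genes with values summed to at most 6.93 TPM, and KRT5 and KRT14 had none. KRT1, DSG1 and IVL had medians at or near 0 over the libraries of both depots together. The 5 of 8 pancreatic genes with values summed to at most 8.30 TPM. CPA1, the 1 tested, was higher in ULB at a low level (0.264 TPM in GOM against 1.37 in ULB, log2 fold change 2.54). Of 60 tested nuclear respiratory chain genes, NDUFB9 and SDHA were higher in ULB, and 58 were not DEGs.

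Hi-C was made from a spun fraction of pulverized, fixed tissue, which the study's methods give as the upper adipocyte layer and the labels as the sediment, whereas no such step is given for the RNA. The index and the RNA may therefore differ in the cells they hold. The A-B index is a score without unit for each 20-kb bin, positive in compartment A and negative in B. Of 113298 autosomal bins, 75175 (66.4%) differed between the depots at an adjusted p below 0.05 by limma. The mean index of a sample was higher in ULB at the median, with -0.560, -0.155 and 0.0047 as the lowest, median and highest in GOM and -0.379, -0.065 and 0.075 in ULB. The median difference over all bins was 0.108, and 0.0059 after quantile normalization. Of the bins that differed, 46290 were higher in ULB (40.9% of all bins) and 28885 in GOM (25.5%) with the deposited index, and 38849 and 36843 after quantile normalization. The share of bins in compartment A was 48.0% ± 1.27 (SD, n = 46) in GOM and 48.3% ± 1.12 (SD, n = 39) in ULB, a difference within the spread between samples (two-sided permutation test, p = 0.212).

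A/B switches, bins in A in over 80% of samples of a depot and in B in over 80% of the other, were few. There were 289 in A in GOM (0.255% of bins, 5.78 Mb in 154 runs) and 385 in A in ULB (0.34%, 7.7 Mb in 187 runs). Counted as bins in A in at least 70% of samples of a depot and at most 30% of the other, 1029 (0.908%) were in A in GOM and 980 (0.865%) in ULB. Among tested genes that start in them, 19 of 37 and 12 of 63 were higher in the depot in A, and 2 and 3 in the other. A/B variables, bins of the same compartment in both depots with an index difference above 0.75, numbered 5045 higher in GOM (4.45%) and 10326 higher in ULB (9.11%). The share of variables toward ULB was 67.2% with the deposited index and 50.4% after quantile normalization (6586 against 6476), so the lean toward ULB depended on the scaling.

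**Figure D4:**
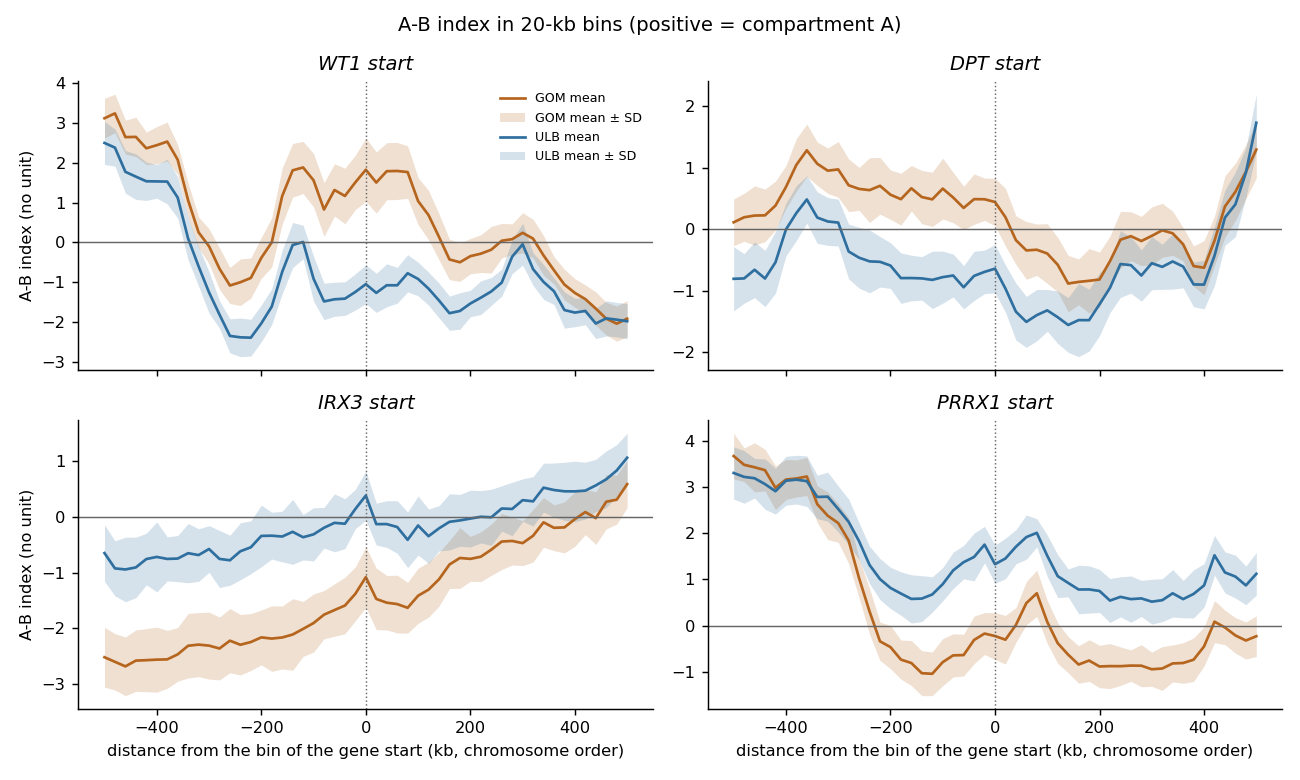
A-B index (y axis, no unit) of the 20-kb bins within 500 kb of the starts of WT1, DPT, IRX3 and PRRX1 in chromosome order, as the mean (line) and SD (band) over 46 GOM and 39 ULB samples of WG pigs. At the start, GOM is above 0 and ULB below it for WT1 and DPT, and the reverse for IRX3 and PRRX1.

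The DEGs that start in these bins were mostly higher in the depot with the higher index, although most tested genes of the variables were not DEGs. In the switches to A in GOM, 16 of 19 genes were tested, of which 10 were higher in GOM (62.5%, beside 10.3% of all PCGs tested) and 1 in ULB. In the switches to A in ULB, 16 of 26 were tested, of which 8 were higher in ULB (50%, beside 7.59%) and none in GOM. In variables higher in GOM, 27.9% of 340 tested genes were higher in GOM and 2.65% in ULB. In variables higher in ULB, 19.3% of 601 were higher in ULB and 5.49% in GOM. In bins of no class, 7.19% of 9439 tested genes were higher in ULB and 9.73% in GOM. Genes of neighbouring bins share a domain, so these counts are a description.

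The WT1 gene lay in the second longest switch to A in GOM, chr2:28300001-28540000. In its start bin the index was -0.361, 1.84 and 3.65 in GOM and -1.97, -0.981 and -0.115 in ULB, and 97.8% of GOM samples and 0% of ULB samples were in A. The difference was -2.88 ± 0.14 (SE, limma, adjusted p = 2.16e-31). ULB replicate 7, whose RNA held WT1, had an index of -1.95 there. The mean was 0.23 in the mesenteric and -0.257 in the retroperitoneal depot, where WT1 was at 8.85 and 7.21 TPM at the median.

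The longest switch to A in GOM, chr4:82000001-82300000 (300 kb), held the start of DPT, which encodes the matrix protein dermatopontin. Its index was -0.329, 0.431 and 1.51 in GOM and -1.64, -0.723 and 0.229 in ULB, and its expression was 20.3, 311 and 768 TPM in GOM and 29.6, 58.3 and 174 TPM in ULB (log2 fold change -2.15 ± 0.15). CDH1 (E-cadherin, 13.3 against 0.691 TPM), PKHD1L1 (7.42 against 0.250 TPM), the monocarboxylate transporter partner EMB (40.8 against 4.79 TPM) and the synaptic vesicle protein SV2B (3.28 against 0.317 TPM) were the other large differences in such bins. RIMKLB, ITGB8, MTUS1 and VIPR2 were also higher in GOM. MACC1 was the exception: it starts in the same bin as ITGB8, in the opposite orientation, and was higher in ULB (0.96 ± 0.13).

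The longest switch to A in ULB, chr5:64920001-65280000 (360 kb), held NTF3, a nerve growth factor relative. Its index was -1.69, -0.486 and 0.492 in GOM and 0.726, 1.40 and 2.55 in ULB, where 100% of samples were in A. NTF3 was at 0.615 TPM in GOM and 1.65 TPM in ULB at the median (1.39 ± 0.19). IRX3 went from -2.03, -1.11 and 0.691 in GOM to -0.717, 0.353 and 1.05 in ULB, and MSX2 from -2.20, -1.06 and -0.00525 to -0.445, 0.378 and 1.41. The chemokine CXCL14 (15.9 against 37.3 TPM), PCDH17, ADAM28, STXBP6 and HAO2 were the other DEGs of such bins.

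**Figure D5:**
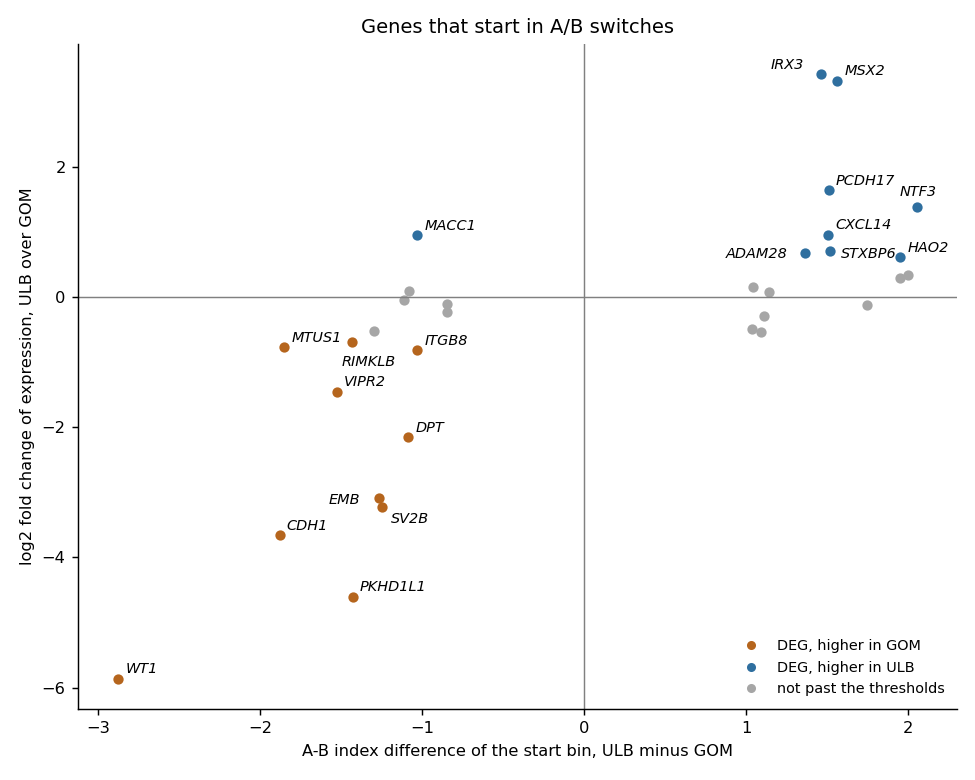
Difference of the A-B index of the start bin (ULB minus GOM, x axis) against the log2 fold change of expression (ULB over GOM, y axis) for the tested genes that start in an A/B switch, 16 in each direction. The 8 blue DEGs on the right are in A and higher in ULB, and the DEGs on the left are higher in GOM apart from MACC1.

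Some of the strongest genes did not switch. The start of PRRX1 lay at chr4:80502689 between a pair of switched runs to A in ULB (chr4:80280001-80460000 and chr4:80620001-80800000), and its bin was in A in 32.6% of GOM and 100% of ULB samples (difference 1.55 ± 0.10). EN1 was in A in 30.4% and 100% (2.25 ± 0.13). FGF10 was in B in every sample of both depots, with a mean index of -3.15 in GOM and -1.04 in ULB, and ZIC1 was in A in 0% and 5.13%. HOXD8 was in A in all samples, with 1.28 in GOM and 2.54 in ULB. GREM1 showed little difference in index (-0.01 ± 0.10, adjusted p = 0.935), although it was far apart in expression. All 7 HOXB genes were higher in GOM, and the 6 with a bin had index differences between -0.037 and -0.022.

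For other genes the index leaned against the expression. COL3A1 and COL1A2 were higher in ULB with an index higher in GOM (differences of -0.48 and -0.51). LMOD1, a smooth muscle gene, was higher in GOM (-1.61 ± 0.13), with an index of -0.507 in GOM and 1.71 in ULB, and its index ranged from -2.89 to 4.53 within GOM. ESR1 was higher in ULB in expression and in a variable bin higher in GOM. PPARG was in A in all samples, with a mean index of 3.33 in GOM and 4.42 in ULB.

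Enhancer regions of H3K27ac, a histone mark of active enhancers, were available as a table for each depot from the pooled samples of 1 subgroup of WG pigs, 7 H3K27ac and 4 input samples in GOM and 4 and 1 in ULB. The study formed such subgroups by estimated cell composition. With 1 table a depot and unequal pooling there is no test. GOM had 25819 regions (494 Mb), 1752 of them super-enhancers, and ULB had 19753 (283 Mb) and 708, so a region in GOM alone was common: 11.7% of tested genes that were not DEGs had a region within 10 kb in GOM and none in ULB, and 3.01% the reverse. For DEGs higher in GOM these shares were 16.1% and 2.19%, and for DEGs higher in ULB 9.60% and 4.74%.

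At the visceral genes, WT1 had 2 super-enhancers (131 kb) and BNC1 had 1 (134 kb) in GOM, with no region in ULB. GATA5 had a super-enhancer of 152 kb that ranked 25 by signal in GOM, where the ULB region ranked 5680. GATA6, HAND2, CRB2, RSPO1, CDH1 and C3 also had a super-enhancer in GOM and none in ULB. Not all visceral genes did: TCF21 had a region of 5.8 kb in GOM and 4.8 kb in ULB, which ranked 13589 and 13736, and BARX1 ranked 18060 and 16271. At the subcutaneous genes, PRRX1 had 3 regions (45.4 kb) and ZIC1 had 1 in ULB, and neither had a region in GOM. The region at EN1 was 8.8 kb and ranked 24242 in GOM and 49 kb and ranked 1429 in ULB. HOXD8 ranked 11232 and 1797, and CRABP2 7485 and 1508. SHOX2 and TBX5, higher in ULB, had 1 region each in GOM and none in ULB. PPARG had a super-enhancer in both depots. IRX3 had no region in either table, and COL1A1, higher in ULB, had 2 super-enhancers in GOM and none in ULB. SREBF1, IGFBP5 and COL1A2, also higher in ULB, likewise had a super-enhancer in GOM alone, as did CDH5, KDR and CEBPA, which were not DEGs. A super-enhancer in GOM alone was thus not particular to genes higher in GOM, and its share over all genes was not counted.

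The depot difference was then compared with that in WL (10 GOM and 10 ULB libraries) and NC pigs (9 and 5). Of 14860 PCGs tested, 162 (1.09%) differed in their depot difference between WG and WL and 343 (2.31%) between WG and NC. These counts moved with the processing: DESeq2 called 256 and 582, and without ULB replicate 7 and GOM replicate 35 they were 204 and 536. ISL1 was the visceral factor that passed, against WL, with a depot difference of -4.71 ± 0.24 in WG and -6.73 ± 0.52 in WL. CD163 was higher in GOM in WG (256 against 83.6 TPM) and close to equal in WL (128 against 134 TPM), a difference between the log2 fold changes of -1.58 ± 0.37 (edgeR, adjusted p = 0.0118). DPP4 differed against both: the depot difference was -1.21 ± 0.10 in WG, -0.27 ± 0.20 in WL and -0.04 ± 0.26 in NC. C5 was higher in ULB in WG (1.69 ± 0.17) and not in WL (-0.37 ± 0.33). PLIN1, the main coat protein of the lipid droplet, was at 0.22 ± 0.10 in WG and 1.16 ± 0.20 in WL. MFAP5 and PI16 leaned further to GOM in WG than in NC. The NC libraries differed in quality by depot, with PCGs holding a median of 79.0% of TPM in GOM and 92.4% in ULB, and with the summed TPM of PCGs as a covariate the count against NC was 1942 and that against WL 162. DPP4, MFAP5 and PI16 passed against NC with the covariate too (edgeR, adjusted p = 0.00521, 0.000766 and 0.00694). That fit called far more PCGs than the fit without the covariate, so this is a weak check on the difference in quality.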

How the data were processed

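RNA-seq of ribosomal-RNA-depleted, stranded libraries and in situ Hi-C of a spun fraction of fixed adipose tissue were analysed from the processed files. The authors estimated transcript abundance with kallisto 0.43.0 and summed it per gene, and they deposited expected counts and TPM. Before testing, these estimated counts were rounded to whole numbers. The deposited A-B index is a score without unit per 20-kb bin, which the authors computed from balanced contact matrices normalized between samples. The tables of enhancer regions hold the authors' H3K27ac and input signal, rank and super-enhancer mark, from ROSE run on merged samples (BWA 0.7.15, SAMtools 1.3.1 and SICER are named in the submitters' processing notes). Groups came from the labels. Each expression and index table held 9 columns that match no sample used here, and these were left out.

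Tested were PCGs with over 0.5 TPM in 80% or more of a depot's libraries, with edgeR 4.0.16 (TMM, quasi-likelihood) in R 4.3.3, bins with limma 3.58.1, and the depot difference between nutritional groups as an interaction in 1 fit of 6 groups. Adjusted p-values are Benjamini-Hochberg over all PCGs or bins. Steps were tested on simulated data. The share of A bins was compared with 100000 permutations. Genes were placed by symbol in RefSeq Sscrofa11.1: 14821 of 21280 PCGs have a symbol and 13563 were placed. Chromosome lengths matched the reference to within 1 bin on 18 of 18 autosomes. Estimated counts per library limit only genes of low level, and for the index, whose depth per bin is not given, precision is known only from the spread between samples.

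Named genes were, in each direction, the 10 largest DEGs with a mean of at least 5 TPM and no overlap, of each list the 2 largest DEGs and the 2 most abundant members, the genes of the 5 longest switched runs and the 5 largest differences in switched bins, and WT1, TCF21, EN1, IRX3 and PPARG. Other list members were named to complete their group. A few genes that this rule names are not reported here. Members and lists were chosen with earlier results of these data known. The study took its depots from the same pigs, but the labels do not tie libraries to pigs, so libraries were treated as independent and p-values measure the spread between them. The alternatives were DESeq2 1.42.0, other scaling and filters, the replicate number as a block, quantile normalization of the index, other thresholds, and fits without the libraries that stood apart, the last chosen after seeing the data.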

Additional observations from a re-analysis of the deposited data

Results flagged for a closer look

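The depot difference of 162 PCGs in WG differed from that in WL, and of 343 PCGs from that in NC, by the interaction test of edgeR (162 and 1942 with the summed TPM of PCGs as a covariate). Values here are the log2 fold change (ULB over GOM) in WG minus that in the other group. A positive value is a shift toward ULB in WG relative to that group. Its sign does not tell in which depot the gene was higher. WG samples enter both comparisons.

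Against WL, toward ULB were CPA1 (2.41), C5 (2.07), SV2B (1.97), ADRA2A (1.52), UPK1B (2.67) and ISL1 (2.02). For UPK1B, ISL1, SV2B and ADRA2A this is a smaller lead of GOM in WG: UPK1B was at a median of 36.9 TPM in WG GOM and 63.2 TPM in WL GOM. Toward GOM were CD163 (-1.58), LMOD1 (-1.12), PGR (-1.10), DPP4 (-0.94), PLIN1 (-0.94), FBN1 (-0.80), LAMB1 (-0.79) and ARHGAP24 (-0.68). For PLIN1 and ARHGAP24 this is a smaller lead of ULB in WG. The call of UPK1B was lost without ULB replicate 7 and GOM replicate 35 (adjusted p = 0.0708), and those of ARHGAP24 (adjusted p = 0.0599) and SV2B with the summed TPM of PCGs as a covariate.

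Against NC, toward ULB were BLK (2.50), CX3CR1 (2.33) and ENSSSCG00000006725 (1.55). For BLK (log2 fold change -0.40 in WG and -2.91 in NC) and CX3CR1 (-0.79 and -3.12) this is a smaller lead of GOM in WG. ENSSSCG00000006725 was higher in ULB in both groups (9.41 and 7.86). BLK was at a low level, with a median of 0.567 TPM in NC GOM and 0 in NC ULB. Toward GOM were ENSSSCG00000039500 (-2.99), CRB2 (-2.75), MFAP5 (-1.81), FGFR4 (-1.59), PLIN2 (-1.58), PI16 (-1.37), ELN (-1.28), FBN1 (-1.27), DPP4 (-1.17), WNT11 (-1.16) and FAP (-0.91). For FAP this is a smaller lead of ULB in WG (1.70, and 2.61 in NC). FBN1 and DPP4 thus passed against both groups, which share the WG samples.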

How the results depend on the processing

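The DEG count was 2402 to 2464 when libraries that stood apart or had under 90% of TPM on PCGs were left out (2464 without ULB replicate 7, 2429 without GOM replicate 35, 2455 without both), 3770 without the filter on low values and 1101 at a fold above 2. Of 2684 pairs of a named gene and an alternative, 2618 kept direction and call, 55 lost the call, 10 gained one and 1 reversed: CD247, at 0.0315 with the summed TPM of PCGs as a covariate. The depot difference against WL was called for 256 PCGs by DESeq2, and that against NC for 582 by DESeq2, 1942 with the covariate and 536 without ULB replicate 7 and GOM replicate 35. A/B switches numbered 136 at over 90%, frequency changes 674 at 80% and 20%, and A/B variables 32284 at an index difference above 0.5. The cause was not tested.

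The replicate numbers are not stated to mark pigs. Of 38 RNA pairs, 37 correlated above 0.1 (lowest -0.378, median 0.622, other numbers -0.073), and 21 of 38 ULB libraries correlated best with their own number. Of 39 Hi-C pairs, 16 were above 0.1 and 1 ULB sample matched its own number best. With the number as a block, 2458 DEGs (2402 on the shared numbers without it), 75001 bins and 15727 A/B variables were called, and 2259 of the 2456 DEGs kept their call and direction. Of the named genes, ATF3, CCR7, CD247, CKM, CXCR4, DES, HSD17B1, IGFBP2, IGFBP4 and MYH11 lost their call with the block.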

Other observations

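In the comparison with WL, the liver genes TTR and VTN, chosen after their values were seen, passed (adjusted p = 0.00953 and 0.00895, edgeR) through a single WL GOM library, replicate 10. It had 304 TPM of TTR against 25.8 in the next library and a median of 3.38 TPM, and 232 TPM of VTN against 28.7 and a median of 5.05 TPM.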
